A study of Mus musculus with 11 samples.

Results

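Mouse cerebellar tumours driven by MYC with Otx2 were compared with tumours driven by MYC with Gfi1, across all genes measured. The MYC/Otx2 group held 3 libraries and the MYC/Gfi1 group held 2, which together made 5 of the 11 libraries of the series, chosen by their labels alone. Both groups were medulloblastomas of CD1 mice, were labelled as constitutive for the expression of the oncogenes, and received no treatment. The shared factor was MYC, so the groups differed by label in the partner gene, Otx2 or Gfi1. No ages, promoters, vectors or cells of origin are stated in the labels of these 5 libraries, and no tumour-free cerebellum was used here. RNA was read from the 3′ ends of polyadenylated transcripts (QuantSeq), and a level is given as CPM, counts per M (mega) of the library total after scaling.

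Medulloblastoma is a malignant tumour of the cerebellum, and Group 3 is its molecular subgroup most often marked by high MYC. Otx2 is a homeodomain transcription factor that sets up forebrain and midbrain early in development and later directs the fates of retinal photoreceptors and bipolar cells and of the pineal gland. Gfi1 is a zinc finger repressor that recruits the histone demethylase Lsd1 and its CoREST partners, and it is known from blood, inner ear and neuroendocrine cells. Human Group 3 tumours often express photoreceptor genes, and GFI1 can be switched on in Group 3 and Group 4 tumours by rearranged enhancers.

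The MYC/Gfi1 libraries held 7.53 and 6.53 M counts and the MYC/Otx2 libraries 6.97, 7.24 and 8.33 M. Across genes, the Spearman correlation was 0.816 between the MYC/Gfi1 libraries and 0.95 between the MYC/Otx2 libraries. The former pair was thus as far apart as many pairs taken across the groups (0.730 to 0.848). MYC/Gfi1 replicate 1 correlated more with each MYC/Otx2 library (0.830, 0.848 and 0.822) than with MYC/Gfi1 replicate 2. MYC/Gfi1 replicate 2 stood apart by genes of normal cerebellum. The summed level of tested mature granule neuron markers was 217 and 5037 CPM in MYC/Gfi1 replicates 1 and 2, against 263, 678 and 278 CPM in the MYC/Otx2 libraries. Regional transcription factors of the hindbrain summed to 86.5 and 1830.0 CPM and to 200.2, 375 and 227 CPM in the same order, and Zic1, a zinc finger factor of cerebellar granule cells, was at 22.8 and 1626 CPM and 126, 229 and 32.5 CPM. Results that touch these genes are therefore given with and without that library. Whether libraries of 1 group are from separate animals is not labelled, so p-values measure the spread between libraries. Ddx3y, a gene of the Y chromosome, had 0 and 604 counts in MYC/Gfi1 libraries and 1, 540 and 0 counts in MYC/Otx2 libraries. Each group thus held RNA of at least 2 animals, and the MYC/Gfi1 libraries were not both of 1 animal. Whether MYC/Otx2 replicates 1 and 3 are of 1 animal was not tested. If they are, the spread between them is not one between animals. Chi-square per degree of freedom, a measure of how far counts of 2 libraries differ, was 27.2 for this pair. It was 23.2 for MYC/Otx2 replicates 1 and 2 and 20.9 for replicates 2 and 3.

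The oncogenes of the labels come before the other genes. Otx2 (chr14:48657677-48673819, GRCm38) was at 2.80 and 0.436 CPM in the MYC/Gfi1 libraries and 13.7, 42.5 and 97.0 CPM in the MYC/Otx2 libraries. Gfi1 (chr5:107716657-107726036) was at 3.61 and 3.05 CPM and 0.283, 0 and 0.231 CPM in the same order. Myc (chr15:61985391-61990374) was at 27.5 and 11.0 CPM and 128, 31.5 and 66.4 CPM. For each of these 3 genes no library of one group overlapped the other group, and the direction followed the labels for Otx2 and Gfi1, but none passed the test (edgeR adjusted p = 0.174, 0.064 and 0.112). A 3′ read counts a transgene only where the transgene ends like the mouse gene, and the sources used here do not give that end, so these levels do not check the labels. The glial calcium binder S100b stood at 25.6 and 557 CPM and 27.3, 73.6 and 4.62 CPM and overlapped between the groups.

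Of 15228 genes tested, 832 (5.46%) differed between the tumours by edgeR's quasi-likelihood test at a Benjamini-Hochberg adjusted p of 0.05. MYC/Otx2 tumours were higher for 370 genes (2.43%) and lower for 462 (3.03%). The median log2 difference, MYC/Otx2 minus MYC/Gfi1, was -0.14 over all genes tested, which is the level that gene lists are read against below. Libraries of the groups did not overlap for 43.6% of genes, 20.1% with MYC/Otx2 above and 23.6% below. The number called depended strongly on single libraries. It was 2170 without MYC/Gfi1 replicate 1 and 218 without MYC/Gfi1 replicate 2, and 87, 232 and 65 without MYC/Otx2 replicates 1, 2 and 3. With 1 library left in the MYC/Gfi1 group, that library is assumed to vary like those of the other groups. Every one of the 832 genes that could be fitted kept its sign in each of these fits.

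**Figure D1:**
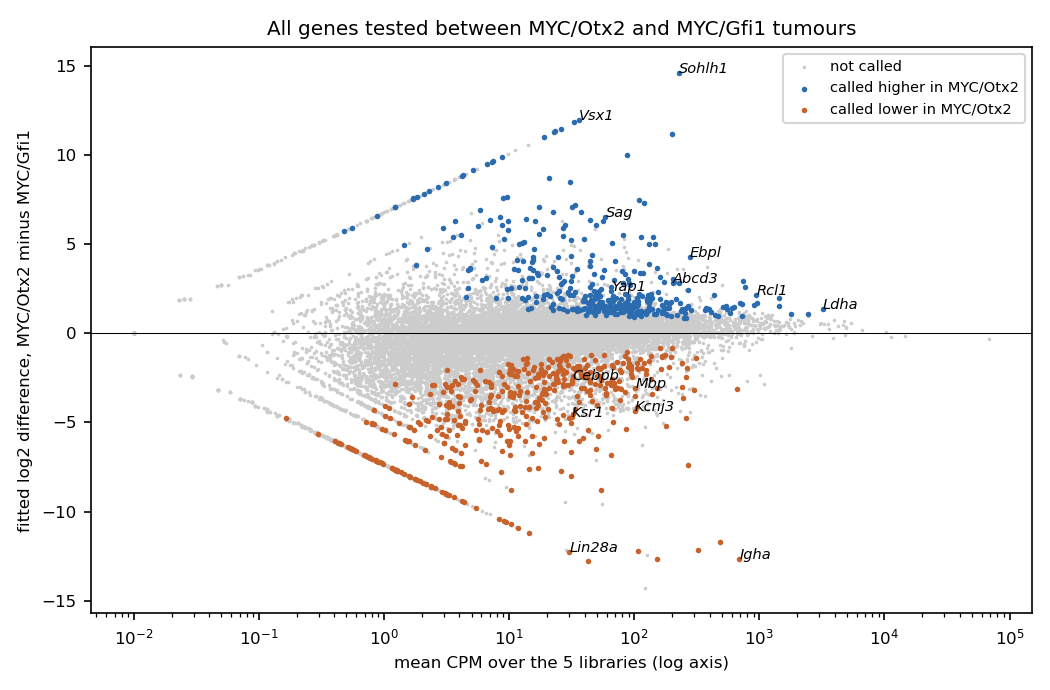
Fitted log2 difference (MYC/Otx2 minus MYC/Gfi1, vertical axis) against the mean level over the 5 libraries (CPM, log axis) for the 15228 genes tested, with 370 called higher in blue and 462 called lower in orange. Points on the straight outer edges are genes with 0 counts in a whole group, whose fitted value rests on a prior count and is no measure of size.

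The genes with the smallest p-values had little spread within either group, and their calls held without each library in turn. Ebpl (chr14:61331742-61360439), a relative of the sterol isomerase Ebp, was at 15.7 and 30.2 CPM in the MYC/Gfi1 and 459, 533 and 349.6 CPM in the MYC/Otx2 libraries, a 19.5-fold rise (log2 4.28 ± 0.34, SE, edgeR adjusted p = 0.00237). Abcd3 (chr3:121758774-121815302), a transporter of the peroxisome membrane, was at 45.8 and 42.3 CPM and 308, 341 and 279.8 CPM (log2 2.81 ± 0.27, SE, edgeR adjusted p = 0.00237). Yap1 (chr9:7931999-8004596), the transcriptional effector of the Hippo pathway, was at 19.9 and 17.9 CPM and 90.3, 85.2 and 115 CPM (log2 2.35 ± 0.25, SE, edgeR adjusted p = 0.00473). These 3 genes were higher in every MYC/Otx2 library by several times the spread within a group. Pard3, a scaffold of cell polarity, rose 7.32-fold, Gng12, a G protein gamma subunit, rose 7.38-fold, and the coiled-coil gene Ccdc77 rose 10.4-fold (edgeR adjusted p = 0.00473, 0.00465 and 0.00237).

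In the other direction, Cebpb (chr2:167688915-167690418), a leucine zipper transcription factor of inflammatory and metabolic responses, was at 69 and 59.1 CPM in the MYC/Gfi1 and 11.4, 9.59 and 9.71 CPM in the MYC/Otx2 libraries, 6.25-fold lower in the latter (log2 -2.64 ± 0.25, SE, edgeR adjusted p = 0.00237). Ksr1 (chr11:79013440-79146407), a scaffold that brings RAF and MEK kinases together, was at 74.6 and 75.4 CPM and 2.68, 2.49 and 3.58 CPM, 25.5-fold lower (log2 -4.67 ± 0.51, SE, edgeR adjusted p = 0.00473). Kcnj3 (chr2:55435970-55598145), a G protein-gated potassium channel, was at 170.1 and 301 CPM and 8.33, 15.9 and 10.3 CPM (log2 -4.35 ± 0.41, SE, edgeR adjusted p = 0.00237). The MYC/Gfi1 libraries lay within a factor of 2 of each other for all 3 genes. Ifitm2, an interferon-induced membrane protein, was at 35.0 and 34.7 CPM and 4.10, 5.11 and 3.47 CPM (edgeR adjusted p = 0.00237). Diras1, a small GTPase of the Ras family, was at 6.88 and 15.0 CPM in the MYC/Gfi1 libraries and had no count in any MYC/Otx2 library, which makes it at least 83.0-fold lower there when the silent group is given a floor of 3 counts (edgeR adjusted p = 0.0107). All of these calls also held without each library in turn.

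Of the 39 gene lists read, that of phototransduction had the most members called higher in MYC/Otx2 tumours. In photoreceptors, light activates an opsin, which acts through the G protein transducin on a phosphodiesterase that closes cyclic nucleotide-gated channels. Arrestin, guanylate cyclase and its activators, and the RGS9 complex then end the response. Bipolar cells carry the signal on, through the glutamate receptor Grm6 in those that answer to light onset. Crx is the homeodomain factor that acts with Otx2 in photoreceptor precursors.

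Of 55 phototransduction and photoreceptor genes listed, 30 were tested, 9 of these were higher in MYC/Otx2 tumours (background 2.43%) and none was lower. The MYC/Otx2 libraries lay wholly above the MYC/Gfi1 libraries for 20 members and wholly below for 0 (background 20.1% and 23.6%). The list's median log2 difference was 4.36, or 3.91 with genes at 0 in a group set to their bound, beside -0.14 over all genes. The count filter keeps a gene that is present in 1 group alone. Members such as Rd3, with 0 counts in MYC/Gfi1 and 348 in MYC/Otx2, can then only have a large positive value. The median and the numbers above and below thus depend partly on the filter. The other 25 had too few counts to be tested, and these included genes of rods (the transducin Gnat1 and the phosphodiesterase subunits Pde6a and Pde6b) and of cones (the opsin Opn1mw, the arrestin Arr3 and the channel subunit Cnga3), with at most 9 counts in any of the 5 libraries. Without MYC/Gfi1 replicate 2 the number called was 4, without MYC/Otx2 replicate 1 it was 3, and without MYC/Otx2 replicate 3 it was 2, while the median stayed between 3.88 and 4.88.

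**Figure D2:**
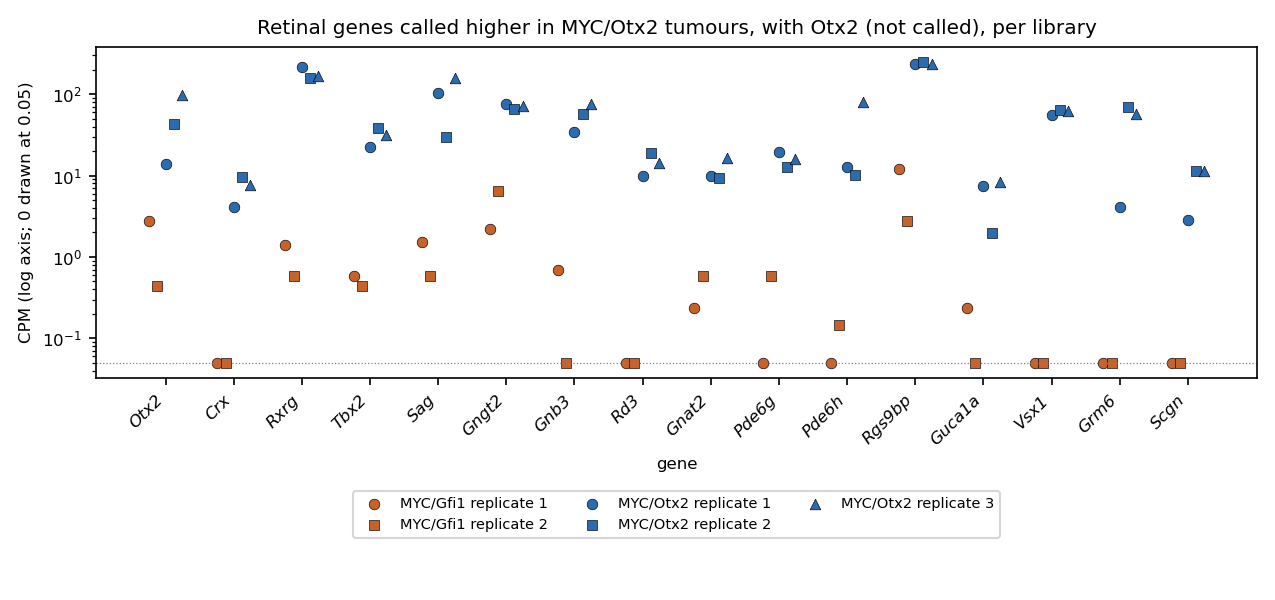
Level (CPM, log axis, with 0 drawn at 0.05) in each of the 5 libraries of Otx2 and the retinal genes called higher in MYC/Otx2 tumours, orange for MYC/Gfi1 and blue for MYC/Otx2. For every gene drawn the 3 blue points lie above both orange points, and Otx2 itself was not called.

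Of the transducin and phosphodiesterase genes, 3 transducin subunits and the inhibitory phosphodiesterase subunits of cones and of rods rose. Gnat2 (chr3:108092789-108101432), the cone transducin alpha subunit, was at 0.233 and 0.581 CPM in the MYC/Gfi1 and 9.75, 9.47 and 16.4 CPM in the MYC/Otx2 libraries (log2 4.84 ± 0.83, SE, edgeR adjusted p = 0.0172). Gnb3 (chr6:124834240-124840275), the beta subunit of cones and of bipolar cells, was at 0.699 and 0 CPM and 34.3, 56.7 and 75.8 CPM (log2 7.17 ± 1.16, SE, edgeR adjusted p = 0.0142). Gngt2 (chr11:95837216-95845734), the cone gamma subunit, was at 2.21 and 6.39 CPM and 75.9, 66.5 and 71.2 CPM (log2 4.05 ± 0.55, SE, edgeR adjusted p = 0.00999). The alpha, beta and gamma subunits of the cone transducin thus each rose, from a few CPM or less in the MYC/Gfi1 libraries. Pde6h, the inhibitory subunit of the cone phosphodiesterase, was at 0 and 0.145 CPM and 12.6, 10.2 and 80.5 CPM, with 1 count in the MYC/Gfi1 group and a ratio of 565 (95% counting interval 101 to 22340.0) (edgeR adjusted p = 0.0293). Pde6g, its rod counterpart, was at 0 and 0.581 CPM and 19.4, 12.8 and 16.1 CPM (edgeR adjusted p = 0.0217). Pde6c, the catalytic subunit of cones, was at 0 and 0.290 CPM and 6.64, 2.86 and 6.01 CPM and was not called (edgeR adjusted p = 0.0899).

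Among genes that end the light response or restore the dark state, Sag, Rgs9bp, Guca1a and Rd3 were called higher, while Rgs9, Grk1 and Gucy2e were tested and not called (edgeR adjusted p = 0.0972, 0.112 and 0.53). Sag (chr1:87803680-87845158), the arrestin of photoreceptors and pineal cells, was at 1.52 and 0.581 CPM and 102, 30.0 and 159.6 CPM, 90.1-fold higher in MYC/Otx2 tumours (log2 6.49 ± 0.84, SE, edgeR adjusted p = 0.00871). Rgs9bp, the anchor of the RGS9 complex, was at 12.1 and 2.76 CPM and 235, 248 and 232 CPM (edgeR adjusted p = 0.042). Guca1a, an activator of guanylate cyclase, was at 0.233 and 0 CPM and 7.35, 1.99 and 8.32 CPM (edgeR adjusted p = 0.0459), and these last 2 genes, like Pde6c, Rgs9, Grk1 and Gucy2e, were named after their values were seen. Rd3, which controls the traffic of guanylate cyclase, had no count in MYC/Gfi1 and was at 9.89, 19.1 and 14.4 CPM in MYC/Otx2, at least 75.5-fold higher (edgeR adjusted p = 0.0158). Of the 9 calls, those of Sag and Gngt2 held without each library in turn, that of Gnb3 was lost without MYC/Otx2 replicate 3, and each of the other 6 was lost without MYC/Otx2 replicates 1 and 3 at least.

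Of 22 retinal transcription factors listed, 14 were tested and 3 were higher in MYC/Otx2 tumours (background 2.43%), with a list median of 1.07. Crx (chr7:15865947-15879968) had no count in the MYC/Gfi1 libraries and was at 4.10, 9.72 and 7.63 CPM in the MYC/Otx2 libraries, at least 37.5-fold higher (edgeR adjusted p = 0.0271). Rxrg (chr1:167598384-167639623), a retinoid X receptor of cones, was at 1.40 and 0.581 CPM and 217, 157 and 169 CPM (log2 7.47 ± 1.75, SE, edgeR adjusted p = 0.042). Tbx2 (chr11:85832551-85841948), a T-box factor of eye development, was at 0.583 and 0.436 CPM and 22.3, 38.9 and 31.2 CPM (log2 5.87 ± 1.45, SE, edgeR adjusted p = 0.0467). Thrb, a thyroid hormone receptor of cones, was at 6.06 and 11.5 CPM and 22.2, 39.0 and 138 CPM and was not called (edgeR adjusted p = 0.138). Nrl and Nr2e3, which direct the rod fate, were too low to test, with 12 counts of Nrl in MYC/Otx2 replicate 3, 2 of Nr2e3 in MYC/Otx2 replicate 1 and none elsewhere. The number of factors called was 1 without MYC/Gfi1 replicate 1 and 0 without any other single library.

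Among 28 bipolar cell genes, 20 were tested, 4 were higher, Gnb3 among them, and 1 was lower (background 2.43% and 3.03%). The MYC/Otx2 libraries lay wholly above the MYC/Gfi1 libraries for 8 members and wholly below for 5 (background 20.1% and 23.6%). Of the 20, 12 had a positive log2 difference. Lhx3 and Gpr179, with 155 and 28 counts in MYC/Gfi1 and 0 in MYC/Otx2, were not called. Vsx1 (chr2:150680702-150689360), a homeodomain factor of bipolar cells, had no count in the MYC/Gfi1 libraries and was at 55.0, 64.5 and 61.7 CPM in the MYC/Otx2 libraries, at least 313-fold higher (edgeR adjusted p = 0.0125). Grm6 (chr11:50850685-50866208) had none and was at 4.10, 68.8 and 56.9 CPM, at least 233-fold higher (edgeR adjusted p = 0.0394). Scgn, a calcium-binding protein, had none and was at 2.83, 11.3 and 11.4 CPM, at least 45.6-fold higher (edgeR adjusted p = 0.0438). MYC/Otx2 replicate 1 was the lowest of its group for all 3 genes. Prkca, a protein kinase C used to mark rod bipolar cells and also present in other neurons, went the other way, at 36.6 and 121 CPM and 11.6, 15.7 and 20.9 CPM (log2 -2.29 ± 0.53, SE, edgeR adjusted p = 0.0392). The list median was 0.94. It was 2.86 without MYC/Gfi1 replicate 2, when 2 members were called higher, 1.44 without MYC/Gfi1 replicate 1, and -0.03 without MYC/Otx2 replicate 3, when no member was called. The call of Vsx1 was lost only without that library, and those of Grm6, Scgn and Prkca without 4 or 5 of the 5.

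OTX and CRX proteins bind DNA at the letters TAATCC. These letters, or GGATTA on the other strand, were searched in the 250 bases before each gene's start in RefSeq (GRCm38.p6), where they were found in 6.25% of all 32851 windows and in 6.24% of the 10373 tested genes with a window. Of the 10 retinal genes called higher that had a window, 4 held them (40.0%), and over all 277 called-higher genes with a window the share was 7.94%. Whether called or not, tested members of the phototransduction list held them in 7 of 21 windows (33.3%), of the retinal factor list in 4 of 10 (40.0%) and of the bipolar list in 3 of 14 (21.4%). The 4 windows of called genes are shown because they hold the letters, which are in capitals. Vsx1, Grm6, Rd3, Scgn, Pde6h and Rxrg were called too and had a window without them. Crx lies at chr7:15879956-15880205, minus strand, Sag at chr1:87803430-87803679, plus strand, Gnat2 at chr3:108092816-108093065, plus strand, and Guca1a at chr17:47400607-47400856, minus strand, and each is printed 5′ to 3′ along its gene.
Crx: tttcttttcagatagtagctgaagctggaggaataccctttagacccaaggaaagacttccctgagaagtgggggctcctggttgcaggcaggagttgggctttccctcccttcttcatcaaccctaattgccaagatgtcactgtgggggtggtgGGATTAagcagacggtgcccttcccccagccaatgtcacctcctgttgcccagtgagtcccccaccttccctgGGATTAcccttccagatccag
Sag: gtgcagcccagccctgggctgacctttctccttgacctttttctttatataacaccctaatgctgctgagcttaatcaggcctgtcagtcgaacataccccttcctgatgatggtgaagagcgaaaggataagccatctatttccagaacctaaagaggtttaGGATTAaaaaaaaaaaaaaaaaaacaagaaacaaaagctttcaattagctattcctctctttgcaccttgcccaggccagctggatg
Gnat2: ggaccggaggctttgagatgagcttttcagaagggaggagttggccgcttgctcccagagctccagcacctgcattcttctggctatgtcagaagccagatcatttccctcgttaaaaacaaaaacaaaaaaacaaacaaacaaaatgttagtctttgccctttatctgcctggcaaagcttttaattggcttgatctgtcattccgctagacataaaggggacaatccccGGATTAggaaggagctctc
Guca1a: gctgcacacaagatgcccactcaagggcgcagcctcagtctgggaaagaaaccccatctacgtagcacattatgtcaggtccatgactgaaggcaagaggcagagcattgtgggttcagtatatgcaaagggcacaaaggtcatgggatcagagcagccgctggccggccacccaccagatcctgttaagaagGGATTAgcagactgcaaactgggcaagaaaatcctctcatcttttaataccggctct
Crx held 2 matches, starting 94 and 21 bases before the gene's RefSeq start, and Sag, Gnat2 and Guca1a held 1 each, 87, 19 and 57 bases before it. RefSeq starts can differ from the GENCODE positions given above. The Gnat2 window lies within the GENCODE span of its gene, and the Crx window lies partly within that of Crx. A match is a description of letters and not a measured binding site. No window was listed for Gngt2, Gnb3, Pde6g, Rgs9bp or Tbx2.

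Other genes that were off in one tumour type were not retinal. Sohlh1 (chr2:25842995-25847248), a basic helix-loop-helix factor of germ cells, had no count in the MYC/Gfi1 libraries and was at 361, 621 and 164 CPM in the MYC/Otx2 libraries, at least 1944-fold higher (edgeR adjusted p = 0.0324). Rhox5 (chrX:37804842-37808876), a homeobox gene of testis and placenta, was at 0 and 0.290 CPM and 729, 53.8 and 221 CPM, a ratio of 2442 (95% counting interval 676 to 20170.0) with 2 counts in the MYC/Gfi1 group (edgeR adjusted p = 0.0136). Plac1, a placental gene also on the X chromosome, was at 0.233 and 0 CPM and 56.4, 11.5 and 84.9 CPM (edgeR adjusted p = 0.0481). Lrp2, the endocytic receptor megalin, was at 0 and 0.145 CPM and 10.2, 11.2 and 26.7 CPM, a ratio of 256 (95% counting interval 45.6 to 10130.0) with 1 count in the MYC/Gfi1 group (edgeR adjusted p = 0.0136). Rpp25, a subunit of RNase P, had no count in MYC/Gfi1 and was at 16.8, 7.47 and 12.9 CPM in MYC/Otx2, at least 63.1-fold higher (edgeR adjusted p = 0.0136). The call of Rpp25 held without each library in turn, that of Rhox5 was lost without MYC/Gfi1 replicate 2 and that of Lrp2 without MYC/Otx2 replicate 3. Those of Sohlh1 and Plac1 were lost without 4 and 5 of the 5 libraries. The window before Sohlh1 (chr2:25847249-25847498, minus strand) is shown because this gene had the highest bound among genes with no count in MYC/Gfi1, and it holds 3 copies of CACGTG, the E-box bound by MYC with MAX, which reads the same on both strands. The 3 copies were noticed after the values were seen, and at least 1 copy was in 6.02% of all windows, in 9.80% of those of tested genes and in 12.6% of those of called-higher genes.
Sohlh1: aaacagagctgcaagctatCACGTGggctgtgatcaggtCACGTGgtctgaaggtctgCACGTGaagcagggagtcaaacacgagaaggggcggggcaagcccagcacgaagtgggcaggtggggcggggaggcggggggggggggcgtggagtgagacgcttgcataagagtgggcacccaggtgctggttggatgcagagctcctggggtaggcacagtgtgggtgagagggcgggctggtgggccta

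Of the 12 tested oncofetal genes, 2 were higher and 1 was lower (background 2.43% and 3.03%), and none was called without MYC/Gfi1 replicate 2. Lin28a (chr4:134003330-134018841), an RNA-binding protein of early embryos that blocks the let-7 microRNAs, was at 49.0 and 102 CPM in the MYC/Gfi1 libraries and had no count in MYC/Otx2, at least 576-fold lower there (edgeR adjusted p = 0.0279). Plagl1 (chr10:13060504-13131694), an imprinted zinc finger gene of fetal growth, was at 6.18 and 7.12 CPM and 226, 256 and 163 CPM, 32.3-fold higher in MYC/Otx2 tumours (edgeR adjusted p = 0.0126). Prtg, the embryonic receptor protogenin, was at 0.350 and 0.290 CPM and 16.7, 23.3 and 39.4 CPM (edgeR adjusted p = 0.0136). Msi1, an RNA-binding protein of neural progenitors, was at 1.05 and 2.32 CPM and 43.5, 64.8 and 86.4 CPM (edgeR adjusted p = 0.0296) and was the only 1 of 21 tested progenitor genes to pass, a share near the background of 2.43%. Dmrtc2, a DM-domain gene of the germ line in neither list, was at 45.7 and 25.7 CPM in the MYC/Gfi1 libraries and had no count in MYC/Otx2, at least 291-fold lower (edgeR adjusted p = 0.0222). Without MYC/Gfi1 replicate 2 all 5 calls were lost. That of Plagl1 was lost without that library alone, that of Prtg also without MYC/Otx2 replicate 3, and those of the other 3 without at least 3 more libraries.

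Retinoic acid, made from vitamin A, is carried by small binding proteins to nuclear receptors. Of 17 genes of this pathway tested, 2 were higher and 3 lower (background 2.43% and 3.03%), with a median of -1.25. Crabp1 (chr9:54764748-54773110), a cytoplasmic retinoic acid-binding protein, had no count in MYC/Gfi1 and was at 61.4, 28.3 and 76.5 CPM in MYC/Otx2, at least 287-fold higher (edgeR adjusted p = 0.0405). Its paralog Crabp2 (chr3:87948666-87953376) was at 52.9 and 19.2 CPM and 0.141, 0.249 and 0.116 CPM, lower in MYC/Otx2 (log2 -7.62 ± 1.70, SE, edgeR adjusted p = 0.0368). Of these 2 paralogs, Crabp1 was the one present in MYC/Otx2 libraries and Crabp2 the one present above 1 CPM in MYC/Gfi1 libraries. The receptor Rarg was at 12.5 and 2.32 CPM and 1.27, 0.498 and 0.578 CPM, also lower (edgeR adjusted p = 0.0415), while the receptor Rxrg, given above, was higher. The calls of Crabp1, Rxrg, Crabp2 and Rarg were lost without 4 or 5 of the 5.

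MYC raises ribosome production, nucleotide synthesis and glycolysis in dividing cells. Most genes of the nucleolar, metabolic, replication and mitosis lists had small positive log2 differences, and few passed the test singly. Of 52 nucleolar MYC targets, 3 were higher and none lower (background 2.43% and 3.03%), 51 had a positive log2 difference, and the median was 0.70. Of 39 metabolic MYC targets, 5 were higher and none lower against the same background, with a median of 0.92. DNA replication genes had 5 higher of 43 and a median of 1.02, and mitosis genes 5 of 44 and a median of 1.04, again with none lower. The median of all genes was -0.14. The summed level of the mitosis list was 5397 and 2918 CPM in the MYC/Gfi1 and 8278, 7705 and 7572 CPM in the MYC/Otx2 libraries.

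Rcl1 (chr19:29101375-29143929), needed to process the small ribosomal subunit RNA, was at 292 and 327 CPM and 1727, 1336 and 1051 CPM, 4.43-fold higher in MYC/Otx2 tumours (log2 2.15 ± 0.25, SE, edgeR adjusted p = 0.00546), and its call held without each library in turn. Cad (chr5:31054780-31078479), which starts pyrimidine synthesis, was at 121 and 128 CPM and 397, 248 and 318 CPM (log2 1.37 ± 0.25, SE, edgeR adjusted p = 0.0192). Shmt1 (chr11:60788104-60811718), an enzyme of one-carbon metabolism, was at 65.0 and 34.6 CPM and 455, 272 and 314 CPM (log2 2.80 ± 0.53, SE, edgeR adjusted p = 0.0234). These enzymes supply nucleotide precursors, and the groups did not overlap for either. Ldha, lactate dehydrogenase A, rose 2.58-fold, Pkm, pyruvate kinase, 2.28-fold, and Slc16a1, a lactate transporter, 2.36-fold (edgeR adjusted p = 0.0472, 0.0337 and 0.0386). These were the 3 called of 32 glycolysis and hypoxia genes (background 2.43%). Of the 32, 19 had a positive log2 difference, and the median was 0.31. The MYC/Otx2 libraries lay wholly above the MYC/Gfi1 libraries for 8 members and wholly below for 3 (background 20.1% and 23.6%). The list summed to 4056 and 8572 CPM in the MYC/Gfi1 and 7875, 6363 and 7480 CPM in the MYC/Otx2 libraries. In that list 3 were higher and 3 lower without MYC/Gfi1 replicate 1, 1 was higher without MYC/Otx2 replicate 2, and none was called without any other single library or with only the 5 libraries compared. Of the replication genes, the polymerase subunit Pola1 rose 2.38-fold and the DNA ligase Lig1 2.73-fold (edgeR adjusted p = 0.0331 and 0.0357). In mitosis, the condensin subunit Ncapd2 rose 3.34-fold, Cdca3 2.91-fold and the spindle protein Prc1 3.02-fold (edgeR adjusted p = 0.0136, 0.015 and 0.0315). Top2a, the topoisomerase of dividing cells, was at 618 and 424 CPM and 1079, 917 and 1016 CPM and was not called (edgeR adjusted p = 0.0776). The call of Ncapd2 was lost without MYC/Otx2 replicate 1 alone, and, Rcl1 aside, each other gene called here lost its call without at least 3 of the 5 libraries.

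The counts called in these 4 lists depended on single libraries of both groups and on the other groups of the series. The medians moved most with the MYC/Gfi1 libraries. In the order nucleolar, metabolic, replication and mitosis, the medians were 1.2, 1.36, 1.51 and 1.9 without MYC/Gfi1 replicate 1. Without 1 MYC/Otx2 library they ran from 0.65 to 0.84, 0.81 to 1.07, 0.86 to 1.07 and 0.97 to 1.1. Without MYC/Gfi1 replicate 1 the members called higher numbered 21, 12, 14 and 25 in the order nucleolar, metabolic, replication and mitosis. Without MYC/Gfi1 replicate 2, the library with high levels of normal cerebellar genes, they numbered 1, 0, 0 and 1, and the medians were 0.43, 0.66, 0.69 and 0.64. Without MYC/Otx2 replicate 1 they numbered 1, 0, 0 and 0. Without MYC/Otx2 replicate 2 they numbered 1, 2, 1 and 2, and without MYC/Otx2 replicate 3 1, 0, 0 and 1. With only the 5 libraries compared, and no spread shared with the other groups, they numbered 1, 3, 0 and 1. The medians in that fit were 0.71, 0.92, 1.02 and 1.03. The part of normal tissue in these differences was not tested.

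**Figure D3:**
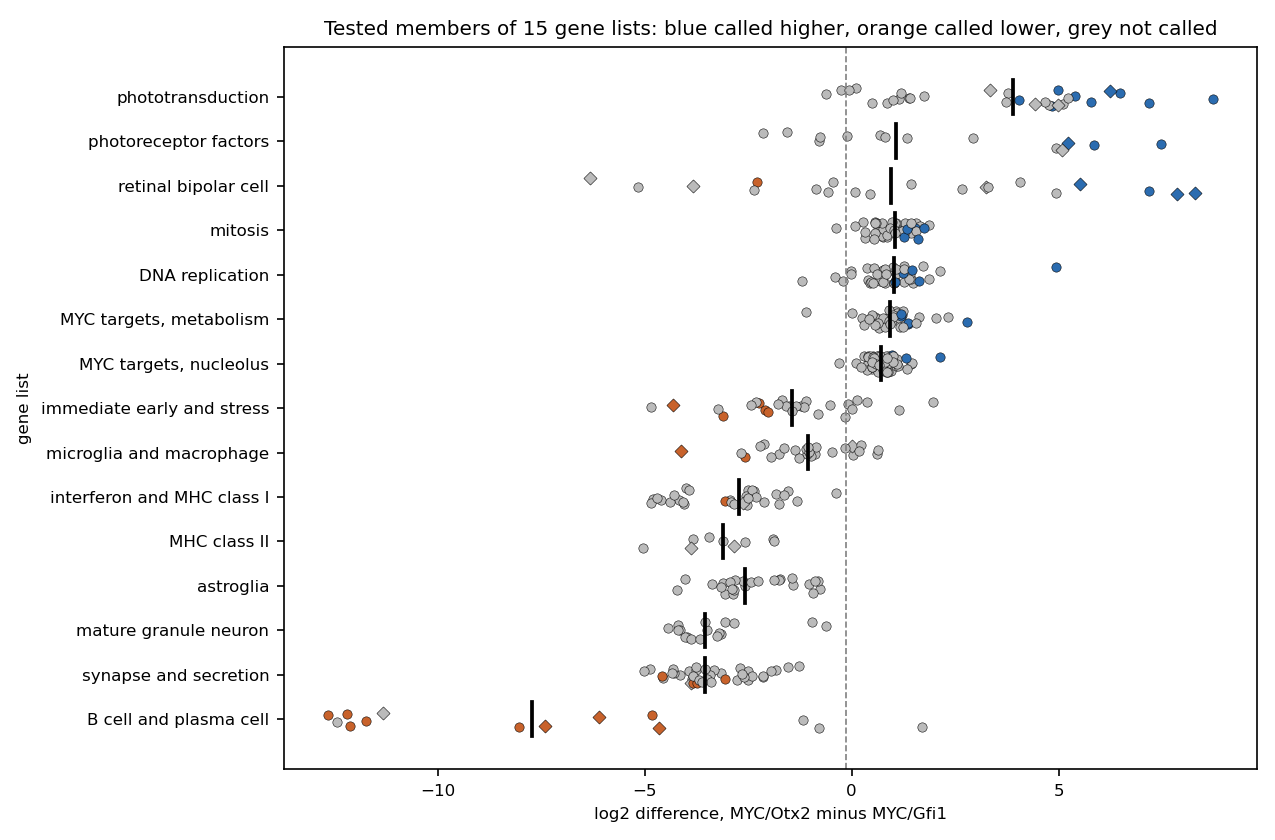
Log2 difference (MYC/Otx2 minus MYC/Gfi1) of each tested member of 15 gene lists, blue where called higher, orange where called lower and grey where not called. Black bars are list medians, the dashed line is the median of all genes (-0.14), and diamonds are genes at 0 in a group, drawn at their bound. Medians of the retinal and dividing-cell lists lie to the right of the dashed line. Those of immune and normal cerebellar lists lie to the left, and bipolar cell members lie on both sides.

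Genes of B cells and plasma cells, which make antibodies, had the most members called lower of the 39 lists. Of 14 tested, 9 were lower in MYC/Otx2 tumours (background 3.03%) and none was higher, and the median was -9.72, or -7.71 with genes at 0 set to their bound. The filter also keeps genes present in MYC/Gfi1 alone, whose values can only be negative, so this median depends partly on it. The members summed to 8055 and 1589 CPM in the MYC/Gfi1 and 63.0, 47.1 and 69.2 CPM in the MYC/Otx2 libraries. Igha (chr12:113254830-113260236), the immunoglobulin A heavy chain, was at 2873 and 587 CPM and 0.283, 0.374 and 0.116 CPM (log2 -12.65 ± 1.76, SE, edgeR adjusted p = 0.0142). The joining chain gene, listed under its older symbol Igj, was at 1412 and 208 CPM and 0, 0 and 0.462 CPM (edgeR adjusted p = 0.0187). Mzb1 helps plasma cells to assemble antibodies and was at 100.4 and 55.9 CPM and 0, 0 and 0.809 CPM (edgeR adjusted p = 0.0172). Pou2af1 (chr9:51213708-51240080), a B-cell transcriptional coactivator, was at 26.6 and 14.7 CPM and had no count in MYC/Otx2, at least 168-fold lower (edgeR adjusted p = 0.0181). Both MYC/Gfi1 libraries were high for these genes, with replicate 1 the higher. Immunoglobulin constant genes resemble each other, and the sources used here do not give how reads were split among them. In bulk RNA, fewer cells of a type and less RNA per cell cannot be told apart.

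**Figure D4:**
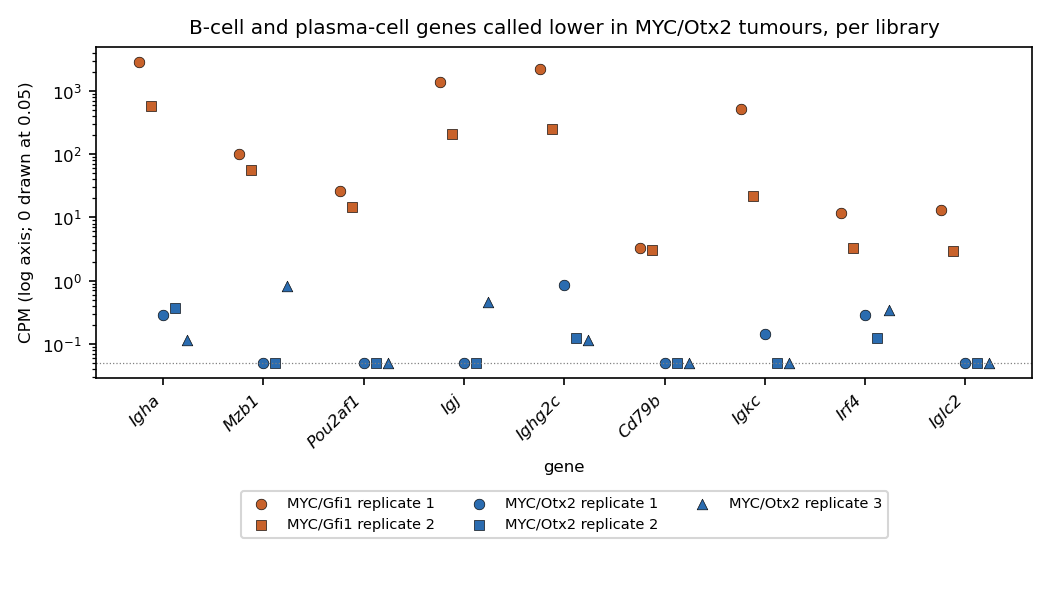
Level (CPM, log axis, with 0 drawn at 0.05) in each of the 5 libraries of the 9 B-cell and plasma-cell genes called lower in MYC/Otx2 tumours. Both orange MYC/Gfi1 points lie above the 3 blue MYC/Otx2 points for every gene.

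The count of B-cell and plasma-cell genes called lower was 6 without MYC/Gfi1 replicate 1, 5 without MYC/Gfi1 replicate 2, and 0, 1 and 1 without MYC/Otx2 replicates 1, 2 and 3, while the median stayed at -8.06 or lower. A few other immune genes were lower (background 3.03%). Among 15 T-cell and natural killer genes, Cd247 and Cd2 were lower, at 5.01 and 1.31 CPM and 7.93 and 1.31 CPM in MYC/Gfi1 with no count in MYC/Otx2 (edgeR adjusted p = 0.0316 and 0.0451). Among 25 microglial and macrophage genes, Itgam, an integrin, and Cd163, a haemoglobin scavenger receptor, were lower, at 7.93 and 8.86 CPM against 1.27, 2.24 and 0.693 CPM and 2.56 and 1.74 CPM against none (edgeR adjusted p = 0.0415 and 0.0441). The summed microglial and macrophage level was 1388 and 1563 CPM and 1201, 748 and 391 CPM. None of 9 MHC class II genes was called, and they summed to 418 and 373 CPM and 152, 14.4 and 8.90 CPM, with MYC/Otx2 replicate 1 between the other libraries. Of these 4 genes, the call of Cd247 was lost without each of the MYC/Otx2 libraries, that of Itgam also without MYC/Gfi1 replicate 2, and those of Cd2 and Cd163 without each library.

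Interferon-induced and MHC class I genes present antigens and answer to viruses. Of 30 tested, only Ifitm3 was called, a share near the background of 3.03%. It was at 101 and 212 CPM and 28.0, 18.1 and 10.6 CPM (log2 -3.05 ± 0.74, SE, edgeR adjusted p = 0.0451). Its relative Ifitm2, given above, is outside this list and was also called lower. The MYC/Otx2 libraries lay wholly below the MYC/Gfi1 libraries for 22 of the 30 (background 23.6%), and the median was -2.87. B2m, the light chain of MHC class I, was at 548 and 477 CPM and 199, 131 and 123 CPM and was not called (edgeR adjusted p = 0.136). The call of Ifitm3 was lost without any library other than MYC/Gfi1 replicate 1.

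Immediate early genes are switched on within minutes of a stimulus or of tissue handling. Of 27 immediate early and stress genes tested, 5 were lower in MYC/Otx2 tumours (background 3.03%) and none was higher, with a median of -1.44. Jund (chr8:70698949-70700616), a subunit of the AP-1 factor, was at 116 and 219.8 CPM and 12.3, 23.4 and 22.2 CPM, 8.69-fold lower (log2 -3.12 ± 0.49, SE, edgeR adjusted p = 0.0136). Its relative Jun was at 48.1 and 18.9 CPM and 4.38, 7.85 and 8.90 CPM (edgeR adjusted p = 0.0455). Dusp1, a phosphatase that ends MAP kinase signalling, was at 52.5 and 46.0 CPM and 7.77, 13.3 and 13.8 CPM (edgeR adjusted p = 0.0386), and Klf2 and Egr2 were the others. The number of members called lower was 1 in the fit lacking MYC/Gfi1 replicate 2 and 0, 1 and 0 without MYC/Otx2 replicates 1, 2 and 3. In the p53 pathway, Trp53inp1 and Sesn1, both p53 targets, were lower, at 78.5 and 22.7 CPM against 5.79, 8.97 and 7.86 CPM and 36.3 and 28.3 CPM against 9.04, 6.85 and 4.04 CPM (edgeR adjusted p = 0.0263 and 0.0441), among 24 tested (background 3.03%) with a median of 0.08. The call of Trp53inp1 was lost without any single library other than MYC/Gfi1 replicate 2, and that of Sesn1 was lost without each library.

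Synaptic genes are active in mature neurons, and which cells their RNA came from was not tested. MYC/Gfi1 replicate 2 was the highest library for most lists of normal cerebellum. Of 39 synaptic and secretory genes, 4 were lower (background 3.03%) and none higher. The MYC/Otx2 libraries lay wholly below the MYC/Gfi1 libraries for 24 members and wholly above for 0 (background 23.6% and 20.1%). The list's median was -3.54, and -1.11 without MYC/Gfi1 replicate 2. Bsn (chr9:108096022-108190384), the presynaptic scaffold bassoon, was at 32.8 and 93.8 CPM and 2.97, 4.11 and 0.809 CPM, 24.0-fold lower (log2 -4.59 ± 0.70, SE, edgeR adjusted p = 0.0136), and lost its call only without MYC/Otx2 replicate 1. Chga, a protein of secretory granules, was at 24.4 and 48.1 CPM and 1.70, 4.11 and 1.73 CPM (edgeR adjusted p = 0.0481), and Camk2b was also called. The number called was 15 without MYC/Gfi1 replicate 1, 1 without MYC/Gfi1 replicate 2, and 0, 2 and 1 without MYC/Otx2 replicates 1, 2 and 3. Mature granule neuron genes had no call among 17, and their median of -3.55 became -0.05 without MYC/Gfi1 replicate 2. Cbln3, a synaptic organizer of granule neurons, was at 2.10 and 1159 CPM and 47.7, 143 and 5.20 CPM, so that library alone was high. The Purkinje and interneuron list changed the sign of its median, from -2.86 to 1.72, without MYC/Gfi1 replicate 2.

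Myelin is the insulating sheath that oligodendrocytes wrap around axons. Mbp, myelin basic protein, was at 186 and 247 CPM and 18.9, 36.7 and 21.6 CPM, 8.38-fold lower in MYC/Otx2 tumours (log2 -3.07 ± 0.36, SE, edgeR adjusted p = 0.0056), and its call held without each library in turn. Cnp, an enzyme of myelin, was at 30.0 and 229.9 CPM and 15.8, 15.9 and 6.24 CPM (edgeR adjusted p = 0.0392) and lost its call without any library other than MYC/Gfi1 replicate 1. These were the 2 called of 15 oligodendrocyte genes (background 3.03%), of which 5 had a positive log2 difference. The list's median of -2.61 became -1.11 without MYC/Gfi1 replicate 2, so the even level of Mbp does not stand for the list. Astroglial genes had no call among 25, with a median of -2.57 that was -1.15 without MYC/Gfi1 replicate 2. Zic2, a zinc finger factor of granule cell precursors, was lower, at 6.29 and 8.86 CPM and 0.565, 0.623 and 0.231 CPM (log2 -3.97 ± 0.93, SE, edgeR adjusted p = 0.0415), and lost its call without any library other than MYC/Gfi1 replicate 1. How much of these differences came from normal tissue in the samples was not tested.

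**Figure D5:**
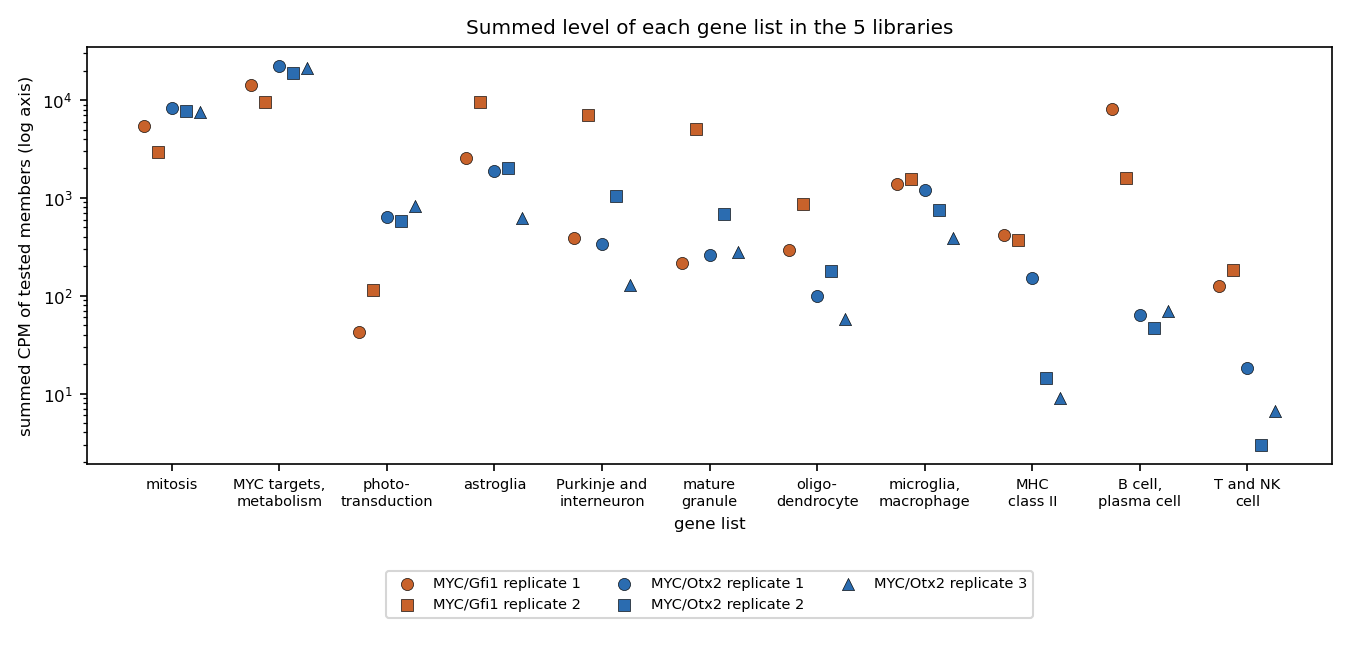
Summed level (CPM, log axis) of the tested members of 11 gene lists in each of the 5 libraries, orange for MYC/Gfi1 and blue for MYC/Otx2. MYC/Gfi1 replicate 2 (orange square) is the highest for astroglia, Purkinje and granule genes, while both MYC/Gfi1 libraries are high for B-cell and plasma-cell genes and low for phototransduction genes.

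Lists of partners of the oncogenes and of tumour subgroup markers had at most 1 call in each direction, against a background of 2.43% higher and 3.03% lower, which gives no result about the lists. Of 16 tested genes of Gfi1, its relatives and the Lsd1-CoREST complex, 1 was lower: Insm2, a zinc finger gene with a Gfi1-type repressor domain, at 38.2 and 1.45 CPM and 0.283, 1.12 and 0.231 CPM (edgeR adjusted p = 0.0386). Of 14 tested genes of the MYC and MAX network, 1 was lower: Mlxipl, a glucose-responsive factor, at 14.5 and 60.3 CPM and 0.141, 0.872 and 0 CPM (log2 -6.73 ± 1.17, SE, edgeR adjusted p = 0.0172). Max, the partner through which MYC binds DNA, was at 278 and 145 CPM and 311, 314 and 335 CPM and was not called (edgeR adjusted p = 0.177). None of 19 Notch targets was called. Of 24 genes that mark sonic hedgehog and Wnt medulloblastoma, 1 was higher, the Wnt inhibitor Nkd2 at 18.1 and 8.28 CPM and 187, 113 and 97.4 CPM (log2 3.33 ± 0.78, SE, edgeR adjusted p = 0.0415), and 1 lower, Zic2. Of 29 markers of Group 3 and Group 4, Crx alone was called. The calls of Insm2 and Nkd2 were each lost without 4 of the 5 libraries and that of Mlxipl without 3.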

How the data were processed

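The authors deposited raw counts per gene symbol from 3′ mRNA sequencing (QuantSeq with unique molecular identifiers, per the labels' protocols), with 1 column per library and no normalization. The submitters' processing notes name STAR 2.4.1d, HTSeq 0.6.1 and build mm10. The sources used here do not give the annotation, strand setting or identifier collapse, so overlapping and antisense genes may share counts, and intervals and floors cover counting error only. Groups came from the labels, and no column was left unmapped (0 unused). All 11 libraries entered edgeR 4.0.16 (R 4.3.3; filterByExpr by group, TMM, glmQLFit and glmQLFTest, robust), so the 4 groups share the estimate of spread. Of 38406 genes, 15228 passed the filter. The contrast was MYC/Otx2 minus MYC/Gfi1, two-sided, with p-values adjusted by Benjamini-Hochberg over all tested genes and called at 0.05. An SE is the log2 value over the square root of F. DESeq2 1.42.0, limma 3.58.1 (voom), other scalings, no filter, fewer libraries and a replicate block were alternatives. The procedure was also run on simulated counts. These had the same spread for all genes and no outlying library, unlike the data, so no conclusion is drawn from them. A group at 0 was given a floor of 3 counts for lower bounds. The lists, and the rule for named genes, were chosen with earlier results of these data known. The rule took label genes, the 15 largest rises and 15 largest falls among called genes of at least 10 CPM without overlap, up to 6 called and 3 uncalled genes per list, the 10 smallest p-values and cell type markers, of which a selection is printed. Of 909 listed symbols, 903 were in the table. Positions are from GENCODE M21 (GRCm38). A few listed genes are not reported here by name.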

Additional observations from a re-analysis of the deposited data

How the results depend on the processing

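The number of genes called was 832 (370 higher and 462 lower in MYC/Otx2). Scaling by RLE gave 868, upper-quartile scaling 779 and no filter 710. DESeq2 called 2695 (1026 higher, 1669 lower) and limma-voom 1377 (674 and 703). With only the 5 libraries compared, 365 were called (185 and 180). Leaving out 1 library at a time gave 65 to 2170 genes, 36 to 1018 higher and 29 to 1152 lower. The cause was not tested, other than that fewer libraries enter these fits. Fitting the replicate number as a block gave 209 calls (93 and 116). The labels do not say what a number shares, and the correlation of same-numbered libraries' deviations was -0.10 and 0.20 in the 2 pairs, so the pairing rests on a number only. Of 76 called genes named here, 16 kept their call in every alternative that gave a value, and no called gene named here changed sign. The uncalled genes S100b, Zic1 and Cbln3 turned positive without MYC/Gfi1 replicate 2, and over the fits that leave out 1 library their log2 values ran from -4.19 to 0.46, from -3.64 to 2.50 and from -4.45 to 4.96. The common biological coefficient of variation of 0.56 limits which genes of low fold can pass.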
